A study of Mus musculus with 9 samples.

Results

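10 transcripts of acute inflammation were followed through the RNA of mouse milk fat: the neutrophil proteins S100a8 and S100a9, the chemokines Cxcl1, Cxcl2, Cxcl3, Ccl3 and Ccl4, the cytokine Il1b with its receptor antagonist Il1rn, and the prostaglandin enzyme Ptgs2. They were picked out by gene symbol and are 10 of the 11206 genes that had a value in at least 1 library. The choice was made with their values in these libraries known, so their levels and their difference between diets are given as a description, with no test. The milk came from primiparous female ICR (CD1) mice on lactation day 10, with 1 library per dam. The high fat diet group (n = 4) took 60% of its energy from fat in a feed of 5.24 kcal per gram, and the control diet group (n = 5) took 10% in a feed of 3.85 kcal per gram. Both feeds had 7% of energy as sucrose, were started at 4 weeks of age and 4 weeks before mating, and were kept up until the milk was taken. Dams shared a cage in pairs within a diet before mating, and which dams shared one is not recorded in the labels.

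Milk fat globules carry cytoplasm of the secretory epithelial cell, so the RNA of the fat layer is mostly a sample of that epithelium. Milk also carries leukocytes, and here the fat was spun again in saline to take out trapped cells. S100a8 and S100a9 pair into calprotectin, which fills the neutrophil cytosol and binds zinc and calcium, and stimulated epithelia make it too. Cxcl1, Cxcl2 and Cxcl3 draw neutrophils through the receptor Cxcr2, Ccl3 and Ccl4 draw monocytes and lymphocytes, and Il1b and Ptgs2 are induced early in inflammation. In such bulk samples, fewer cells of a type and less RNA per cell cannot be told apart.

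The values are FPKM, fragments scaled to transcript length and to library size, each with a lower and an upper bound. A gene has a row in a library only above 1 FPKM, and a gene without one is called unlisted there. Libraries 1 to 4 of the high fat diet listed 7974, 5124, 2075 and 4986 genes, and the control diet libraries listed 7098 to 8903. Depth read from the width of the bounds, with control diet library 1 set to 1, was 1.21, 0.823, 0.930 and 1.59 in high fat diet libraries 1 to 4, against 1.00 to 1.21 in the control diet libraries. The bounds cover the error of the estimate within a library, and not the spread between dams.

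All 10 transcripts had their highest value in a single library, high fat diet 1, and it was the only library to list all of them. High fat diet libraries 2 and 3 listed 0 of the 10 and high fat diet library 4 listed 1, Cxcl1. Control diet libraries 1 to 5 listed 4, 6, 7, 5 and 6 of them. Their FPKM summed to 245 in high fat diet library 1, 0 in high fat diet libraries 2 and 3 and 1.15 in high fat diet library 4, against 17.7, 19.7, 20.9, 27.0 and 14.9 in control diet libraries 1 to 5. Of all genes listed anywhere, 5.94% were highest in high fat diet library 1, and 2.87% were listed there alone, as Il1b, Cxcl3 and Ptgs2 were. By this sum, 1 high fat library lay above the control diet range and 3 lay below it. The 3 lower libraries also listed fewer genes of any kind, 5124, 2075 and 4986, against 7098 to 8903 in the controls. How many of all genes lay below every control in them was not counted.

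**Figure D1:**
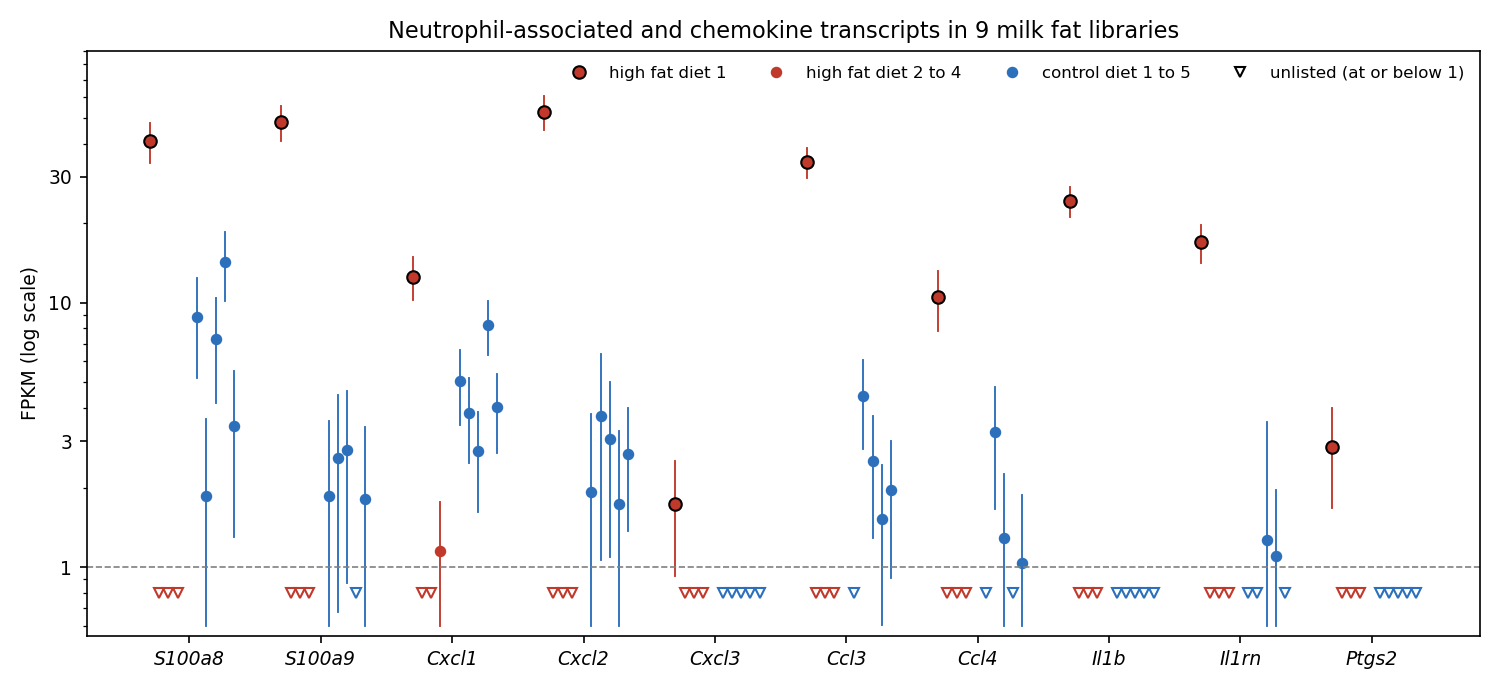
FPKM on a log axis of the 10 transcripts in each milk fat library, high fat diet on the left of each gene and control diet on the right. Points are libraries, bars run between the deposited bounds, clipped at the lower edge of the axis, and open triangles are unlisted values. High fat diet library 1, outlined in black, is the top point for all 10 genes.

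S100a8, one chain of calprotectin, was at 40.9 FPKM in high fat diet library 1 and unlisted in high fat diet libraries 2 to 4, against 8.83, 1.85, 7.28, 14.3 and 3.42 FPKM in control diet libraries 1 to 5. The control diet libraries averaged 7.14 ± 4.91 FPKM (SD, n = 5), the widest spread among the 3 transcripts that all 5 of them listed. S100a9, the other chain, was at 48.3 FPKM in high fat diet library 1 and unlisted in the other 3 high fat libraries, against 1.86, 2.59, 2.76 and 1.82 FPKM in control diet libraries 1, 2, 3 and 5. For both chains high fat diet library 1 lay above all 5 controls. The other 3 high fat libraries were unlisted, which by itself puts them below any control that listed the gene. For S100a9 they cannot be told apart from control diet library 4, which was unlisted too. The genes lie on chromosome 3, S100a8 at 90668978 to 90670035 on the plus strand and S100a9 at 90692632 to 90695721 on the minus strand (GRCm38), with 22.6 kb between them. The value in high fat diet library 1 was 2.85 times the highest value elsewhere for S100a8 and 17.5 times for S100a9. Both chains are needed for calprotectin. The ratio of S100a9 to S100a8 was 1.18 in high fat diet library 1, against 0.210, 1.39, 0.380 and 0.532 in control diet libraries 1, 2, 3 and 5. Of the libraries that listed both, only control diet library 1 had bounds that were apart. They were 5.19 to 12.5 FPKM for S100a8 and 0.141 to 3.57 for S100a9 there. In control diet library 4, S100a8 reached its highest control value and S100a9 was unlisted.

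The chemokines Cxcl1, Cxcl2 and Cxcl3 all lie on the plus strand of chromosome 5 (GRCm38). Cxcl3 spans 90786103 to 90789600, Cxcl1 follows 101.6 kb further on at 90891241 to 90893115, and Cxcl2 another 10.8 kb on at 90903871 to 90905938. Their promoters are shown because the 3 genes are close relatives that share a promoter motif yet were listed at very different levels. Each sequence below is the 250 bases before the RefSeq start (GRCm38.p6, plus strand), with matches to the NF-kB motif GGNNTTTCC, read on both strands, in capitals. The windows are chr5:90890995-90891244 for Cxcl1, chr5:90903649-90903898 for Cxcl2 and chr5:90785851-90786100 for Cxcl3.
Cxcl1: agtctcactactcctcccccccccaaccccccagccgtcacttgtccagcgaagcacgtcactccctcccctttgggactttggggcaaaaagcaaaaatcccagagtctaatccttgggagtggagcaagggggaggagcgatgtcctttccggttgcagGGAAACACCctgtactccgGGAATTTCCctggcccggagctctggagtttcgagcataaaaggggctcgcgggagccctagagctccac
Cxcl2: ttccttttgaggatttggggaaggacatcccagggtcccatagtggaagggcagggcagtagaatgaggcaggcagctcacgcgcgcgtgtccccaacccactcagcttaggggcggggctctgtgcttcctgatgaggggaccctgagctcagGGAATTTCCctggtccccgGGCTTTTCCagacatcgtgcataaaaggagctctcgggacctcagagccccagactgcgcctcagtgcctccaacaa
Cxcl3: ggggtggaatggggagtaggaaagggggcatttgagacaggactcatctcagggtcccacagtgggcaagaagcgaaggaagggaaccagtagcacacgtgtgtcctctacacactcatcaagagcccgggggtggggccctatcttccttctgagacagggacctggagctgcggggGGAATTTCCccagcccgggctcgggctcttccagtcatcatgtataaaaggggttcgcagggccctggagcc

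The longest run common to all 3 windows was GGGAATTTCCC, which spans an NF-kB match and ends 61 bases before the start in Cxcl1, 87 in Cxcl2 and 63 in Cxcl3. It stood in 14 of the 32851 RefSeq windows of this length, 0.0426%. Cxcl1 had a further NF-kB match on the minus strand, 89 to 81 bases before the start, and Cxcl2 had GGCTTTTCC 77 to 69 bases before it. Aligned over their whole length, the windows were 52.0% identical between Cxcl1 and Cxcl2, 52.7% between Cxcl1 and Cxcl3 and 58.7% between Cxcl2 and Cxcl3. Of the 9 of the 10 genes with a promoter entry, 4 held the motif, the other being Il1rn in 1 of its 3 windows, while 4.93% of all windows held it. The motif letters were set with these promoters in view. Fewer of the 9 genes held the other motifs searched: 1 held the AP-1 motif TGANTCA (Il1rn, 6.75% of all windows), 2 the C/EBP motif TTGCNNAA (S100a9 and Ptgs2, 9.56%) and 3 the TATA box TATAAA (S100a8, Il1b and Cxcl3, 12.4%). A match says that the letters are there, and nothing of whether a factor was bound.

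Cxcl1 was the only one of the 10 with a value in another high fat library. It was at 12.6 FPKM in high fat diet library 1 and 1.15 in high fat diet library 4 and unlisted in libraries 2 and 3, against 5.05, 3.84, 2.75, 8.26 and 4.05 FPKM in control diet libraries 1 to 5 (4.79 ± 2.10, SD, n = 5). Its top value stood least clear of the rest, at 1.52 times control diet library 4, and the bounds of these 2 libraries, 10.2 to 14.9 and 6.36 to 10.2 FPKM, nearly met. Cxcl2 was at 52.9 FPKM in high fat diet library 1, the highest of the 10, and unlisted in the other 3 high fat libraries, against 1.92, 3.75, 3.05, 1.74 and 2.69 FPKM in control diet libraries 1 to 5 (2.63 ± 0.824, SD, n = 5). The value in high fat diet library 1 was 14.1 times the highest control value, and Cxcl2 ranked 401 among the genes of that library. Cxcl3 was at 1.73 FPKM in high fat diet library 1, with bounds of 0.929 and 2.52, and unlisted in the other 3 high fat libraries and in all 5 control diet libraries. Among the 50-base stretches of its transcripts, 4.24% also occur in other genes, Cxcl2 among them, and so do 5.84% of those of Cxcl2, so the low value of Cxcl3 is uncertain. The ratio of Cxcl2 to Cxcl1 was 4.22 in high fat diet library 1, against 0.381, 0.977, 1.11, 0.211 and 0.664 in control diet libraries 1 to 5. By these values Cxcl2 led in the high fat library and Cxcl1 led in 4 of the 5 controls. Among the controls, the bounds of the 2 genes were apart only in library 4. They were 0.207 to 3.27 FPKM for Cxcl2 and 6.36 to 10.2 for Cxcl1 there.

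Ccl3 and Ccl4, which call in monocytes, are neighbours on chromosome 11 (GRCm38), Ccl3 at 83647844 to 83649355 on the minus strand and Ccl4 at 83662584 to 83664683 on the plus strand. Ccl3 was at 34.1 FPKM in high fat diet library 1 and unlisted in the other 3 high fat libraries, against 4.44, 2.51, 1.52 and 1.95 FPKM in control diet libraries 2 to 5, with library 1 unlisted. Ccl4 was at 10.5 FPKM in high fat diet library 1 and unlisted in the other 3 high fat libraries, against 3.24, 1.28 and 1.04 FPKM in control diet libraries 2, 3 and 5, with libraries 1 and 4 unlisted. Both were thus highest among the controls in control diet library 2, which stood at the lower end for S100a8. The value in high fat diet library 1 was 7.67 times the highest other value for Ccl3 and 3.26 times for Ccl4. The ratio of Ccl3 to Ccl4 was 3.24 in high fat diet library 1, against 1.37, 1.96 and 1.88 in control diet libraries 2, 3 and 5.

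**Figure D2:**
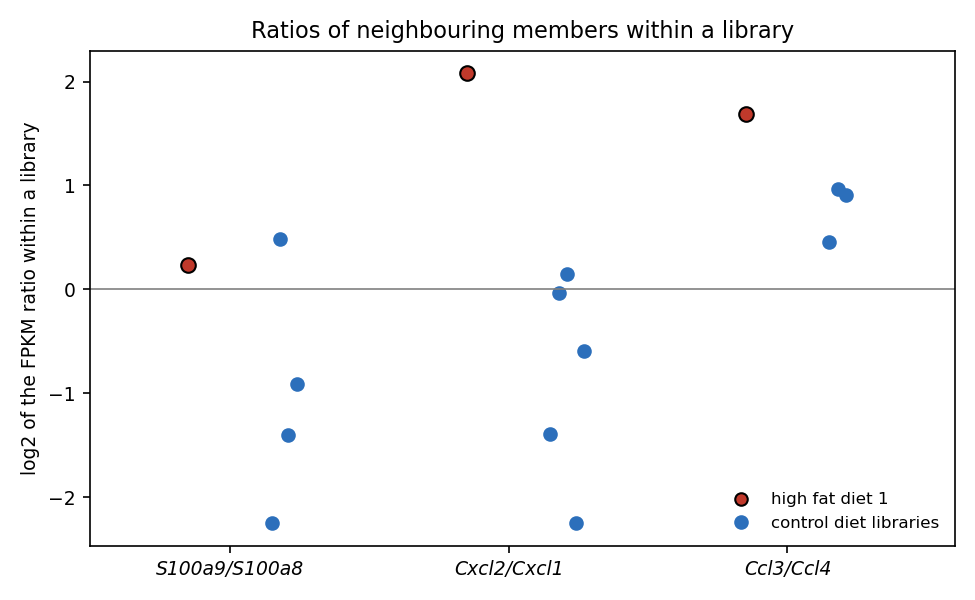
The log2 of the FPKM ratio between members of a pair within a library, for each library that listed both, with high fat diet library 1 on the left of each pair and control diet libraries on the right. The Cxcl2 to Cxcl1 and Ccl3 to Ccl4 ratios of high fat diet library 1 lie above every control diet library, and the S100a9 to S100a8 ratio lies within their range.

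Il1b, the cytokine that starts much of the acute response, was at 24.3 FPKM in high fat diet library 1 and unlisted in the other 8 libraries. Il1rn, the antagonist that occupies its receptor, was at 17.0 FPKM in high fat diet library 1 and unlisted in the other 3 high fat libraries, against 1.27 and 1.11 FPKM in control diet libraries 3 and 4, with the other 3 unlisted. Antagonist and cytokine were thus of similar level in the only library that listed both, where the ratio of Il1b to Il1rn was 1.43. Il1b lies at 129364570 to 129371139 on the minus strand and Il1rn at 24336853 to 24351494 on the plus strand of chromosome 2 (GRCm38). Ptgs2, the inducible cyclooxygenase that makes the precursor of the prostaglandins, was at 2.84 FPKM in high fat diet library 1, with bounds of 1.67 and 4.01, and unlisted in the other 8 libraries. It lies at 150100031 to 150108227 on the plus strand of chromosome 1. Counting an unlisted value as 1 FPKM, high fat diet library 1 had 24.3 times the level of any other library for Il1b, 13.4 times for Il1rn and 2.84 times for Ptgs2. By that count 5 of the 10 transcripts, S100a9, Il1b, Il1rn, Cxcl2 and Ccl3, were at least 4 times any other library, as were 0.384% of all genes listed anywhere.

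High fat diet library 1 held the highest value of all 10 transcripts, so leaving it out had to lower each diet difference. For S100a8 and Cxcl1 the difference was negative either way, and also for Cxcl2 and Ccl3 with unlisted values as 0. With unlisted values as 1 FPKM and all libraries, Cxcl2 had 0.358 and Ccl3 0.404. As the mean of log2(FPKM + 1) with unlisted values as 0, the difference of high fat from control was -1.44 for S100a8 (SE 1.28), -1.25 for Cxcl1 (SE 0.82), -0.39 for Cxcl2 (SE 1.27) and -0.15 for Ccl3 (SE 1.22). It was 1.17 for Il1b (SE 1.02), 0.59 for Il1rn (SE 0.97), 0.49 for Ptgs2 (SE 0.43), 0.36 for Cxcl3 (SE 0.32), 0.05 for S100a9 (SE 1.30) and 0.02 for Ccl4 (SE 0.89). Without high fat diet library 1, the difference was negative for 7 of the 10 and 0 for Il1b, Cxcl3 and Ptgs2, which were then unlisted everywhere. It was then -2.79 for S100a8, -2.10 for Cxcl1, -1.83 for Cxcl2, -1.43 for Ccl3, -1.35 for S100a9, -0.86 for Ccl4 and -0.45 for Il1rn. The median of all 7983 tested genes was also negative, at -1.08 with all libraries and -1.37 without high fat diet library 1.

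**Figure D3:**
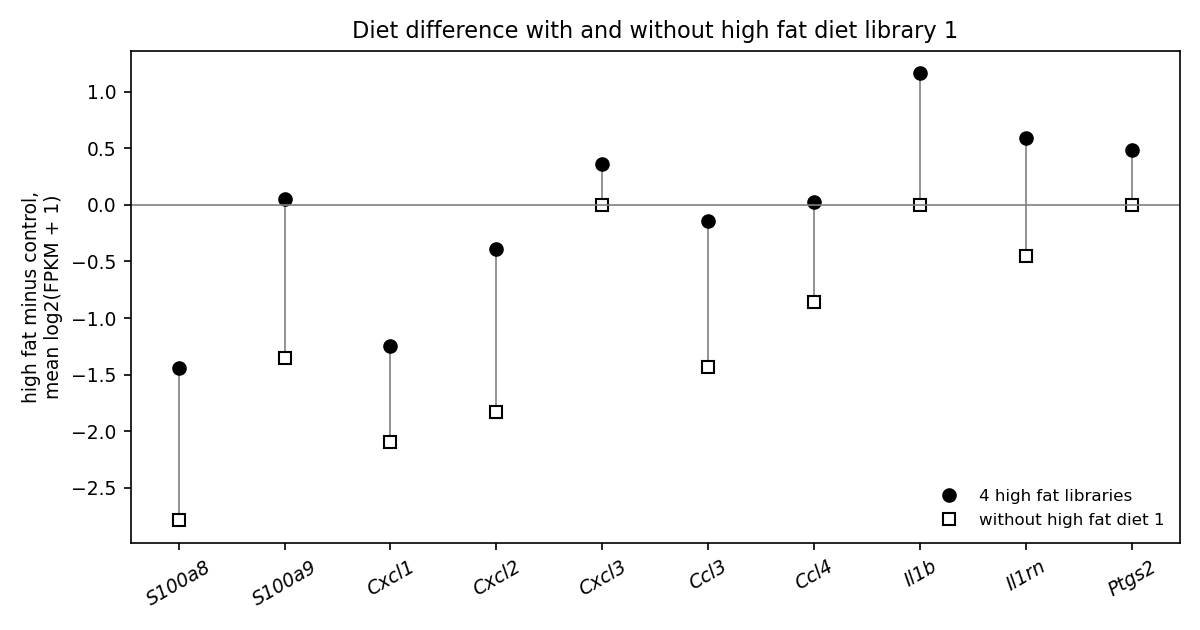
Difference of the mean log2(FPKM + 1), high fat minus control diet, for each transcript, with all 4 high fat libraries as filled circles and without high fat diet library 1 as open squares. Each value is lower without that library, as it must be where that library is the highest, and Il1b, Cxcl3 and Ptgs2 lie at 0.

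A linear model across all tested genes, limma with Benjamini-Hochberg adjustment, gave the background: 20.8% of genes were called lower and 0.0% higher on the high fat diet at an adjusted p of 0.05, and 49.5% and 0.0626% at an unadjusted p of 0.05. Of the 10 transcripts 6 were listed in enough libraries to enter the model, and no result of it is given for them, since they were chosen on these values. The number of genes called lower was 0 with the libraries scaled by median of ratios, against 1662 as deposited, and ranged from 16 without high fat diet library 3 to 5215 without high fat diet library 1. Counts of genes that fell in the lists below stand beside that 20.8% of all tested genes, and no list was tested as a whole. The calls given below for related genes rest on the deposited scale, and under median-of-ratios scaling 0 of them held.

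The other leukocyte genes were compared with the 10 transcripts library by library. Of the defining neutrophil markers, Ly6g, Cxcr2, Mmp8, Mmp9, Ngp, Camp and Fpr1 were unlisted in all 9 libraries. High fat diet library 1 listed 3, Csf3r at 3.94, Itgam at 2.67 and Retnlg at 1.35 FPKM, a sum of 7.96, and the sum was 0 in high fat diet libraries 2 to 4, against 0 in 4 control diet libraries and 1.11 in control diet library 4. The name neutrophil transcripts is therefore only partly borne out: Csf3r, Itgam and Retnlg were low in high fat diet library 1, Itgam was also listed in control diet library 4, and the granule and surface genes named above were unlisted everywhere. Of 9 macrophage and general leukocyte markers, Adgre1 and Csf1r were unlisted in all 9 libraries, and the others summed to 16.9, 3.35, 31.0 and 0 FPKM in high fat diet libraries 1 to 4, against 2.10 to 6.94 in the controls. In high fat diet library 3, which listed none of the 10 transcripts, most of the sum was the macrophage lysozyme Lyz2, at 22.4 FPKM. Over a longer list of 19 such genes, 12 were listed and 6 were highest in high fat diet library 1. The pan-leukocyte phosphatase Ptprc (1.45 FPKM), the myeloid factor Spi1 (1.36) and the Fc receptor chain Fcer1g (1.32) were listed there alone. Fcgr3 was at 5.56 FPKM in high fat diet library 1 and unlisted in the other 3 high fat libraries, against 1.46 in control diet library 3 and a like value in library 1. The 7 T and B cell markers were unlisted in all 9 libraries, and so were Hbb-bs, Hba-a1 and Alas2 of red cells. The part of leukocytes in the levels of the 10 transcripts was not tested.

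In high fat diet library 1, 11 of 13 markers of the secretory epithelium lay within the range of the controls. The milk protein Wap was at 13220, 3553, 4311 and 7822 FPKM in high fat diet libraries 1 to 4, against 14920, 7636, 14170, 14570 and 15460 in control diet libraries 1 to 5. High fat diet libraries 2 to 4 thus had less of it than 4 of the 5 controls, and high fat diet library 1 lay among the controls. The exceptions were the casein Csn1s2a, at 5251 FPKM against 2075 to 4848 in the controls, and the adhesion protein Epcam, at 7.25 against 8.46 to 36.2. In the model 3 of the 13 fell, a share close to that of all tested genes (20.8%), namely Cldn3 (-2.64 on the log2 scale, adjusted p = 0.011), Epcam (-2.49, adjusted p = 0.0181) and Krt18 (-2.42, adjusted p = 0.0403), and 0 rose. Krt8 (-1.84, adjusted p = 0.0582) and Wap (-1.04, adjusted p = 0.244) did not pass.

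A longer list of 34 neutrophil genes took in the defining markers named earlier. Of all genes listed anywhere, 5.94% were highest in high fat diet library 1 and 2.87% were listed there alone. Of the 34, 17 were listed somewhere, 10 of these were highest in high fat diet library 1 and 7 were listed there alone. Those listed there alone were Clec4e, a receptor for damage and fungal ligands, at 8.93 FPKM, the histamine enzyme Hdc at 7.09, Stfa2l1 at 5.38, the decoy receptor Il1r2 at 3.63, the formyl peptide receptor Fpr2 at 1.28, and Csf3r and Retnlg. Clec4d was at 9.08 FPKM in high fat diet library 1 and unlisted in the other 3 high fat libraries, against 1.11 in control diet library 5 and unlisted in the other 4 controls. The granule proteoglycan Srgn was at 15.5 FPKM in high fat diet library 1, unlisted in library 2 and at 1.60 and 1.80 in libraries 3 and 4, against 2.27, 2.21, 2.44, 7.34 and 4.17 in control diet libraries 1 to 5. Clec4d and Srgn were thus highest in the same library as the 10 transcripts. Other genes of the list were not: the granule protease Prtn3 was listed in control diet library 4 alone at 1.52 FPKM, Padi4, which citrullinates histones, in control diet libraries 3 and 5 alone at 2.15 and 2.71, and the surface protein Cd177 in high fat diet library 2 alone at 1.08. Lcn2, Ltf, Slpi and G0s2 had values in all 9 libraries and were highest in a control. Lcn2, which binds bacterial siderophores, was at 314.8, 38.5, 12.0 and 97.8 FPKM in high fat diet libraries 1 to 4, against 440.2, 200.3, 363.2, 680.9 and 268.5 in control diet libraries 1 to 5. It fell (-2.50 on the log2 scale, adjusted p = 0.0436), and the protease inhibitor Slpi (-2.09, adjusted p = 0.0291), the 2 calls among 5 tested genes. Lactoferrin, Ltf, had -1.95 (adjusted p = 0.0771), Srgn -0.40 (adjusted p = 0.521) and G0s2 -0.47 (adjusted p = 0.607). The median of the 5 was -1.95, beside -1.08 for all tested genes. The defining neutrophil markers named earlier were listed in too few libraries to enter the model. Whether the RNA of the 5 tested genes came from neutrophils was not tested.

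Of 17 receptors for the ligands among the 10 transcripts, 4 had a value anywhere. Ccrl2, an atypical receptor that presents chemoattractant to neighbouring cells, was at 10.9 FPKM in high fat diet library 1 and unlisted in the other 8. Tlr4, a receptor of calprotectin and of endotoxin, was at 1.92 FPKM in high fat diet library 1 and unlisted in the other 3 high fat libraries, against 1.89, 1.43, 2.72, 3.38 and 3.35 in control diet libraries 1 to 5, and fell (-1.41, adjusted p = 0.0357). It was the only tested gene of that list.

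Of 30 other chemokines, 6 were listed somewhere and 1 of these was highest in high fat diet library 1. All 6 were tested, 2 fell and 0 rose, with a median of -0.87. Cxcl16, a membrane-bound ligand of Cxcr6, was at 2.26 FPKM in high fat diet library 1 and unlisted in the other 3 high fat libraries, against 2.49, 1.74, 3.39, 2.75 and 6.30 in control diet libraries 1 to 5. It fell (-1.61, adjusted p = 0.0291), and Ccl9 (-1.36, adjusted p = 0.0385). Ccl28, which brings antibody-secreting cells to the lactating gland, was at 2.02 and 3.41 FPKM in high fat diet libraries 1 and 4 and unlisted in libraries 2 and 3, against 4.25, 2.71, 3.76, 4.79 and 1.95 in the controls (-1.19, adjusted p = 0.0733). Ccl25 had -0.54 (adjusted p = 0.24). The one highest in high fat diet library 1 was Cxcl17, at 3.32 FPKM.

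In the interleukin 1 pathway, 16 of 22 genes were listed and 4 of these were highest in high fat diet library 1. The inflammasome sensor Nlrp3, at 6.78 FPKM, and the inhibitory kinase Irak3, at 1.59, were listed in that library alone. Il36g, deposited as Il1f9, was at 5.73 FPKM there. Casp4, which senses endotoxin in the cytosol, was at 5.65 FPKM in high fat diet library 1 and unlisted in the other 3 high fat libraries, against 5.64, 2.69, 3.08, 5.35 and 1.99 in control diet libraries 1 to 5. Among 11 tested genes 4 fell and 0 rose, with a median of -0.996: Tollip (-1.48, adjusted p = 0.0385), Casp4 (-1.50, adjusted p = 0.0414), Casp1 (-1.32, adjusted p = 0.042) and Tab2 (-1.44, adjusted p = 0.0471). The receptor kinase Irak1 had -0.65 (adjusted p = 0.319).

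Around Ptgs2, 11 of 20 prostaglandin and leukotriene enzymes were listed and 0 were highest in high fat diet library 1. Lta4h, which makes the neutrophil attractant leukotriene B4, fell (-1.54, adjusted p = 0.0314) and the prostaglandin E synthase Ptges2 (-1.42, adjusted p = 0.0385), the 2 calls among 4 tested, with 0 higher and a median of -1.48. Ptges3 had -1.71 (adjusted p = 0.0526) and Cbr1 -0.91 (adjusted p = 0.17).

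Of 26 genes of NF-kB and its targets, 18 were listed and 6 were highest in high fat diet library 1, where Tnfaip2 at 12.4 and Tnf at 1.79 FPKM were listed alone. Cd14, the coreceptor of endotoxin, was at 33.7, 2.33, 1.71 and 6.98 FPKM in high fat diet libraries 1 to 4, against 16.8, 10.0, 12.6, 28.7 and 23.1 in control diet libraries 1 to 5. Cd14 thus lay above every control in high fat diet library 1 and below every control in the other 3. Csf1 was at 5.95 FPKM in high fat diet library 1 and 1.21 in control diet library 5 only, and the feedback inhibitor Tnfaip3 at 4.09 FPKM in high fat diet library 1, against 1.03 and 1.52 in control diet libraries 3 and 5. Among 13 tested genes 4 fell and 0 rose, with a median of -1.02: Ier3 (-2.22, adjusted p = 0.0269), the NF-kB subunit Rela (-1.61, adjusted p = 0.0281), Nfkbiz (-1.41, adjusted p = 0.0424) and Bcl3 (-1.35, adjusted p = 0.0491). Cd14 had -1.35 (adjusted p = 0.109).

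Of 13 other S100 genes, relatives of S100a8 and S100a9, 8 were listed and 0 were highest in high fat diet library 1. S100a11 was at 7.79 FPKM in high fat diet library 1 and unlisted in the other 3 high fat libraries, against 12.4, 5.86, 7.40, 11.9 and 17.4 in control diet libraries 1 to 5. Among 7 tested genes 5 fell and 0 rose, with a median of -1.91, and they included S100a11 (-2.71, adjusted p = 0.00785), S100a14 (-1.98, adjusted p = 0.0102), S100a10 (-2.18, adjusted p = 0.0285) and S100a16 (-1.91, adjusted p = 0.0288). S100a1, the most abundant, had -1.18 (adjusted p = 0.187). Macrophage and general leukocyte genes gave 0 calls among 5 tested, with a median of -0.23: Cd68 had -0.996 (adjusted p = 0.0802), Lcp1 -0.77 (adjusted p = 0.189), Cd52 -0.23 (adjusted p = 0.631) and Tyrobp 0.64 (adjusted p = 0.265). Tyrobp was at 8.29, 1.30 and 3.92 FPKM in high fat diet libraries 1 to 3 and unlisted in library 4, against 2.40, 2.14 and 2.41 in control diet libraries 1, 3 and 4.

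**Figure D4:**
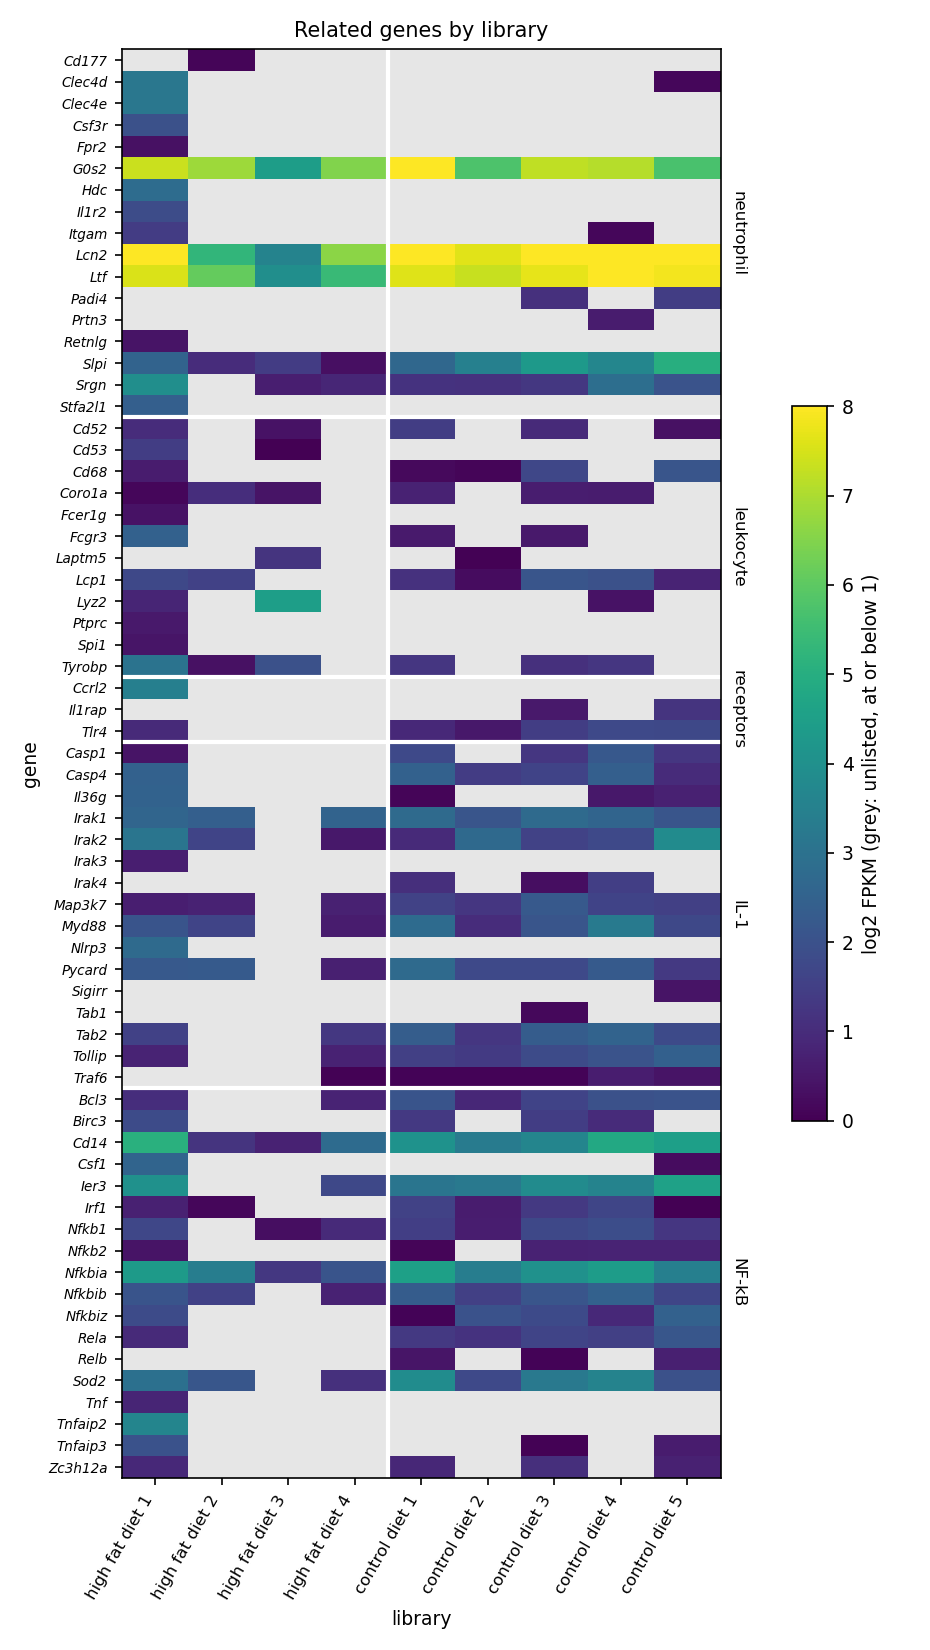
Log2 FPKM of genes listed in at least 1 library from the neutrophil, leukocyte, receptor, interleukin 1 and NF-kB lists, with high fat diet libraries on the left and control diet libraries on the right of the white line. Grey cells are unlisted. High fat diet library 1 fills rows that are grey elsewhere, among them Clec4e at 8.93, Ccrl2 at 10.9 and Tnfaip2 at 12.4 FPKM.

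The genes most like the 10 transcripts over the 9 libraries were ranked by Pearson's r of log2(FPKM + 1), as a description, since the points share the high value of 1 library. Closest to the mean profile of the 6 transcripts in the model were Tceanc2 (r = 0.929), Fbxl5 (r = 0.914), Tmem176a (r = 0.907), Ccdc120 (r = 0.888) and Kin (r = 0.877). Tceanc2 was at 1288 FPKM in high fat diet library 1 and unlisted in the other 3 high fat libraries, against 1.05, 1.76, 2.52, 2.21 and 2.27 FPKM in control diet libraries 1 to 5. Tmem176a was at 22.8 FPKM in high fat diet library 1, unlisted in library 2 and at 1.09 and 1.45 in libraries 3 and 4, against 3.08, 1.74, 3.40, 5.23 and 2.22 in control diet libraries 1 to 5. Closest to S100a8 were Plekho2 (r = 0.966), Hps3 (r = 0.944) and Zfp64 (r = 0.943), whose values in high fat diet library 1 were only 2.67, 3.18 and 3.17 FPKM. Closest to Cxcl2 were again Tceanc2, Fbxl5 and Tmem176a (r = 0.951, 0.897 and 0.894). Il1b was listed in too few libraries to be ranked.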

How the data were processed

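Milk fat RNA was made into stranded total RNA libraries, per the labels' protocols. The deposited values are FPKM by gene, 1 table for each library, with lower and upper bounds, per the file headers. Tools listed in the submitters' processing notes are DESeq2, HTSeq, Cufflinks, TopHat, Bowtie2, Trimmomatic and FastQC. For these tools no versions, and for the reads no length, strand setting or build, are given in the sources used. Of 11206 gene identifiers, 11165 were found in GENCODE M21 (GRCm38), and for 9293 of these both ends matched once 1 was added to the start, all 10 members included. In 6 repeated identifiers the highest FPKM was kept, and 26 stray text cells were not used. FPKM keeps no read total. The bounds lie 2 standard deviations from FPKM, so relative depth was estimated from the width of the bounds over 507 genes with 1 annotated transcript.

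The 7983 genes that reached 1 FPKM in 4 or more libraries were fitted with limma 3.58.1 in R 4.3.3 on log2(FPKM + 1), using diet as the sole term and a trended variance. Unlisted genes were set to 0, and the adjusted p threshold was 0.05. Adding 1 to FPKM shrinks changes between low listed values, while setting unlisted genes to 0 can enlarge a change across the listing limit. With unlisted genes at 1 FPKM, the median of all tested genes was -0.714, against -1.08 as reported. Libraries scaled by median of ratios, a pseudocount of 0.1, no filter, a floor of 1, the replicate number as a block and leaving out libraries were alternatives. The fit was also run on simulated data of 7983 genes. It recovered 95% of 200 altered genes there (log2 change of 2), with 9 unchanged genes called. How far this holds for the deposited libraries, with their unlisted genes and their spread between dams, was not tested. The limma model took the dams as independent, though they shared cages in pairs within a diet before mating and the pairs are not recorded. Its p-values set the diet difference against a spread between these dams that was drawn toward the trend over all tested genes. They do not rest on each gene's own spread alone, so a gene with a wider spread of its own can get too small a p-value.

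The members and gene lists were chosen with earlier results of these data known. Genes named are the 10 members, up to 4 tested genes of smallest unadjusted p and the most abundant tested gene of each list, and the genes most like the members. Genes listed or highest in high fat diet library 1, and S100 or leukocyte genes outside that rule, were chosen after their values were seen. Sequences are RefSeq's (GRCm38.p6), the motif letters were set with the promoters in view, and promoters were aligned with Biopython 1.88.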

Additional observations from a re-analysis of the deposited data

Results flagged for a closer look

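A value was picked out when the gap between the highest or lowest library of a diet and its nearest neighbour, divided by the range of that diet, was above Dixon's 95% critical value for that number of libraries. Chance picks out about 1 in 20 groups. For the members this ratio is a description and no test, since they were chosen on these values. High fat diet library 1 was the high one, with a ratio of 1 for S100a8, S100a9, Il1b, Il1rn, Cxcl2, Cxcl3, Ccl3, Ccl4 and Ptgs2, a value fixed by the other 3 being unlisted and counted alike, and of 0.908 for Cxcl1. The ratio was 0.995 for the summed FPKM of the members, 1 for the summed receptors and 0.862 for the summed NF-kB list.

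Of related genes named above, high fat diet library 1 was alone at a ratio of 1 for Cxcl16, Ccl25, Tlr4, Il1r2, Ccrl2, Casp4, Casp1, Nlrp3, Irak3, Il1f9, Lta4h, Ptges2, Rela, Nfkbiz, Tnf, Tnfaip2, Tnfaip3, Csf1, S100a11, Cd68, Ptprc, Fcer1g, Fcgr3, Spi1, Csf3r, Retnlg, Itgam, Clec4e, Clec4d, Hdc, Stfa2l1, Fpr2, Tceanc2, Fbxl5, Kin, Plekho2, Hps3 and Zfp64. Many of these are genes that only this high fat library listed at all, so the ratio reflects the listing limit of 1 FPKM. It was 0.883 for Srgn, 0.835 for Cd14 and 0.936 for Tmem176a. High fat diet library 3 was alone at the top for Ccl9 (1) and Lyz2 (0.920) and at the bottom for Irak1 (0.876), and high fat diet library 2 at the top for Cd177 (1).

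In the control diet, library 5 stood alone at the top for Csf1 (1), Clec4d (1), S100a14 (0.825) and Krt18 (0.722), library 4 at the top for Lyz2 (1), Itgam (1) and Prtn3 (1), and library 2 at the bottom for Hps3 (0.917), Wap (0.834) and the summed secretory epithelium markers (0.813).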

How the results depend on the processing

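The count of genes called lower on the high fat diet, 1662 as reported, was 145 with a pseudocount of 0.1, 13 with no filter, 15 among genes listed in all 9 libraries, 0 with median-of-ratios scaling, 87 with unlisted genes at 1 FPKM, and, added after seeing the data, 0 without high fat diet libraries 2 and 3 and 414 with median-of-ratios scaling without high fat diet 1. Leaving out 1 library at a time gave 16 to 5215 lower and 0 to 4 higher: 5215 without high fat diet 1, 2348 without control diet 2, and 74, 16 and 162 without high fat diet 2, 3 and 4 and 808, 82, 290 and 259 without control diet 1, 3, 4 and 5. The calls in the gene lists went with them: counts were 0 for every list under no filter, median-of-ratios scaling and without high fat diet libraries 2 and 3. With a pseudocount of 0.1 they were 0 except 2 S100 genes. With unlisted genes at 1 they were 0 except for 1 neutrophil gene, 1 S100 gene and epithelial genes within 1.5 times their count. Among genes listed in all 9 libraries 1 neutrophil gene was called and the other lists tested were at 0. With median-of-ratios scaling without high fat diet 1, IL-1, NF-kB and S100 genes had 1 each, neutrophil genes, chemokines and epithelial genes 0, and receptors and prostaglandin enzymes their reported counts. Leaving out 1 library gave 0 to 4 neutrophil genes, 0 to 3 chemokines, 0 to 1 receptors, 0 to 7 IL-1 genes, 0 to 3 prostaglandin enzymes, 0 to 10 NF-kB genes, 0 to 5 S100 genes, 0 to 1 leukocyte genes and 0 to 6 epithelial genes. The cause was not tested. The median of all tested genes, -1.08 as reported, was -0.55 with median-of-ratios scaling.

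Directions that turned were S100a9 at -1.40 (pseudocount 0.1), -1.17 (median of ratios without high fat diet 1) and -1.35 to 0.52 when 1 library was left out, Il1rn at -0.28 (median of ratios without high fat diet 1) and -0.45 to 0.94, Cxcl2 at 0.36 (unlisted at 1), 1.05 (without high fat diet 2 and 3) and -1.83 to 0.088, Ccl3 at 0.40, 1.14 and -1.43 to 0.28 in the same settings, and Ccl4 at -0.788 (pseudocount 0.1), -0.076 (median of ratios), -0.84 (median of ratios without high fat diet 1) and -0.86 to 0.33. S100a8 and Cxcl1 stayed negative in every setting run. Among related genes, which did not pass the test as reported, Srgn was at 0.44 with median of ratios, 0.64 without high fat diet 2 and 3 and -1.17 to 0.18 with 1 library left out, Irak1 at 0.084 without high fat diet 2 and 3 and -0.90 to 0.040, Cd52 at 0.35 and 0.27 with median of ratios with and without high fat diet 1 and -0.53 to 0.018, and Wap at 0.22 and 0.28 in the same settings.

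The correlations of same-numbered libraries were 0.142, -0.285, 0.043 and -0.088, and those of differently numbered libraries ran from -0.279 to 0.305. These values gave no sign that equal replicate numbers pair the dams. They cannot tell which dams shared a cage. With the replicate number as a block, 29 genes were lower and 4 higher, and every list had 0 calls. Values near 1 FPKM are the least certain, and a transcript unlisted in a library may still be present there at or below 1 FPKM.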
